A study of Mus musculus with 3 samples.

Results

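Tetraspanins are small membrane proteins that cross the membrane several times, and their transcripts were examined here in T cells of the mouse spleen. The family was taken as every gene whose symbol starts with Tspan and a digit, together with Cd9, Cd37, Cd53, Cd63, Cd81, Cd82 and Cd151, provided that it had a protein-coding transcript. This gave 27 genes of the 55536 annotated genes measured, of which 22028 are protein-coding. Total RNA was sequenced from 3 libraries, each of 300 ng RNA with synthetic spike-in transcripts, by a directional (strand-marking) kit. All 3 are labelled as splenic T cells of virgin females of the strain B6CASTF1/J, whose mothers are C57BL/6 and whose fathers are CAST/EiJ (F1 hybrids), at 66 days of age, and the label CD3 names the surface protein of T cells. They form 1 group with no treatment and no comparison group, and are called replicates 1, 2 and 3 as numbered in the labels. The labels number them as biological replicates, each with technical replicate number 1, but give 3 biosamples under 1 donor record. Whether they come from separate mice could not be told. Spreads and p-values therefore measure only the difference between these samples, which may be technical. Reads were assigned to 1 reference genome, and the CAST/EiJ allele was not analysed here.

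A tetraspanin has short tails inside the cell, a small outer loop and a large outer loop that carries a cysteine-cysteine-glycine motif. The proteins act as organisers of the membrane: they bind integrins, immunoglobulin-family proteins and proteases sideways, and gather them in patches. Cd9, Cd63 and Cd81 are common markers of extracellular vesicles, Cd37 and Cd53 are largely restricted to blood cells, and the members of the TspanC8 group (Tspan5, Tspan10, Tspan14, Tspan15, Tspan17 and Tspan33) carry the protease Adam10 to the cell surface. In T cells, Cd81, Cd82, Cd9 and Cd151 have been described as costimulatory or adhesion-linked, while Cd37 and Tspan32 are known as restraints on T-cell proliferation.

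All 27 members held the motif in frame, as a pair of cysteine codons (TGT or TGC) followed by a glycine codon (GGN) on the coding strand. Of 21736 other protein-coding genes, 2.48% held it, and of the 5398 with a coding length in the same range of 204 to 332 codons, 1.72% did. Members were read in a principal transcript and the other genes in their longest complete coding sequence. Tetraspanins outside the naming rule were not taken out of the other genes. The stretches below show the motif in the 6 members with the highest levels in all libraries, in Tspan10, whose level differed most between libraries, and in Cd81 and Cd9. Each runs 5′ to 3′ along the coding strand, from the GENCODE M21 transcripts (mm10), with the motif codons in capitals.
Cd53: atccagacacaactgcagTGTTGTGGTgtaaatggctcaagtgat
Cd37: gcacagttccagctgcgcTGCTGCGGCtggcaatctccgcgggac
Cd82: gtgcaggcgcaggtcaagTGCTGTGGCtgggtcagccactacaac
Tspan32: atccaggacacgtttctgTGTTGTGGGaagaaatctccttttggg
Tspan13: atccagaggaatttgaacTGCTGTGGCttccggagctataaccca
Tspan14: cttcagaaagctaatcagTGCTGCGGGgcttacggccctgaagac
Tspan10: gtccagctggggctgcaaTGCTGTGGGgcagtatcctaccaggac
Cd81: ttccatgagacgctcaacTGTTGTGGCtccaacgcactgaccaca
Cd9: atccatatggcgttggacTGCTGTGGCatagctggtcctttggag
The motif lay in exon 6 of 8 in Cd53 (chr3:106763278-106763286, minus strand), Cd37 (chr7:45235629-45235637, minus strand), Cd81 (chr7:143066667-143066675, plus strand) and Cd9 (chr6:125462189-125462197, minus strand). In Tspan10 it lay in exon 2 of 3 (chr11:120444696-120444704, plus strand), in a coding sequence of 332 codons, the longest of the family. Tspan13 had the shortest, with 204 codons. The glycine codon ended in different letters (GGT in Cd53, GGC in Cd37, Cd82, Tspan13, Cd81 and Cd9, GGG in Tspan32, Tspan14 and Tspan10), so the motif is shared by its codons and not by its exact letters.

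The libraries held 16.9, 15.0 and 16.2 M estimated counts on annotated genes in replicates 1, 2 and 3, of which tetraspanins took 0.0910%, 0.0935% and 0.0875%. The T-cell label was checked against its markers, and 13 of 13 reached 10 TPM (a unit of transcript abundance scaled by effective length and depth) in every library, with a summed level of 3272 to 3534 TPM. Markers of other cells summed to 12.8 to 24.4 TPM for B cells, 37.8 to 49.2 TPM for myeloid cells, 42.6 to 97.1 TPM for red cells and 4.21 to 7.32 TPM for platelets. Natural killer cell markers summed to 14.95 to 20.85 TPM. None of the 10 B-cell, 8 platelet or 5 natural killer cell markers reached 10 TPM in all libraries. Those that did were 1 of 12 myeloid markers (Lyz2, 14.95 to 17.65 TPM), 2 of 7 red-cell markers (Hba-a1 and Hbb-bs) and 1 of 7 stromal markers (Pecam1, mean 51.8 TPM). All other stromal markers were far lower, with means from 0 (Emcn) to 0.37 TPM (Cdh5). In bulk RNA, fewer cells that express a tetraspanin and less of its RNA per cell cannot be told apart, which holds for every level below.

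Most of the summed tetraspanin TPM of these cells lay in 6 of the 27 members. The like share among all protein-coding genes was not computed, so this is not called particular to tetraspanins. Of the 27 genes, 14 (51.9%) reached 1 TPM in all 3 libraries, against 44.7% of all protein-coding genes, and 6 (22.2%) reached 10 TPM, against 25.4%. In the second quantification, 16 and 8 members did. Cd53, Cd37, Cd82, Tspan32, Tspan13 and Tspan14 were those 6, and they held 90.2% ± 2.65 (SD, n = 3) of the summed tetraspanin TPM. The sum was 561, 569 and 521 TPM in replicates 1, 2 and 3 (550.3 ± 26.02, SD). At the other end, Tspan1, Tspan11 and Tspan12 were at 0 in every library, where an observed 0 allows a true mean of up to 3 counts per library (counting error only). With these 3 included, 10 of the 27 members stayed below 1 TPM in all libraries. Of 22028 protein-coding genes, 7024 were at 0 and 11481 stayed below 1 TPM in all libraries, so both shares were smaller among tetraspanins. The members named by a CD number and Tspan32 are called the 8 leukocyte members here. That name is only a label, since not all of them are restricted to blood cells. The median level, as log2(TPM + 1), was 4.44 ± 0.12 (SD, n = 3) over these 8. It was 1.57 ± 0.37 over the 6 TspanC8 members and 0.24 ± 0.03 over the 13 others, beside 0.56 ± 0.03 over all protein-coding genes. The groups were chosen with earlier results of these data known, so their difference is a description.

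**Figure D1:**
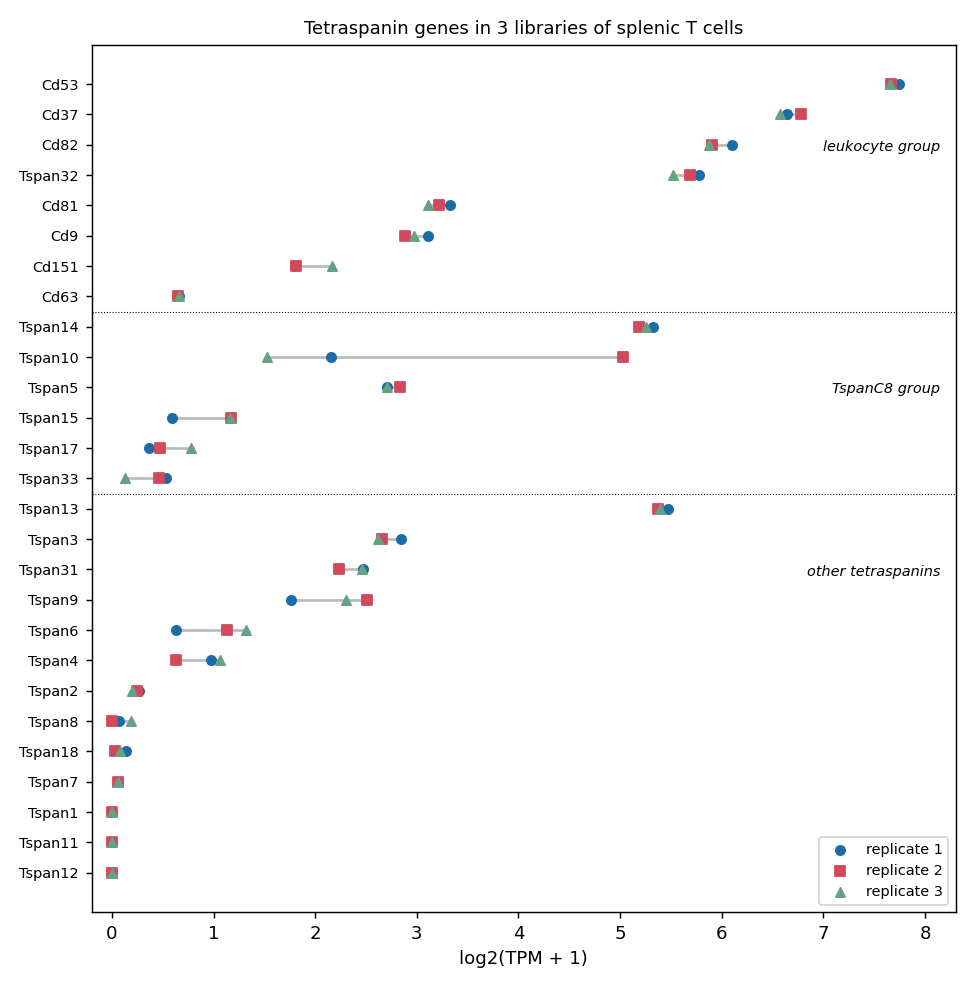
Level of each of the 27 tetraspanins as log2(TPM + 1) in replicates 1 (circle), 2 (square) and 3 (triangle), grouped as leukocyte members, TspanC8 members and others, with grey lines spanning the 3 libraries. Tspan10 has the widest line, from 1.88 to 31.55 TPM, while the 6 members above 10 TPM in all libraries have short ones.

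Among the leukocyte members, Cd53 was the highest tetraspanin at 213, 202 and 201 TPM in replicates 1, 2 and 3 (205 ± 6.87, SD). It stood above 99.0% of protein-coding genes and alone gave 37.4% ± 1.64 of the summed tetraspanin TPM. Cd53 is a pan-leukocyte protein that associates with the phosphatase Cd45. Cd37, which limits T-cell proliferation and links to the cytoskeleton, followed with 98.7, 109 and 94.3 TPM, highest in replicate 2. The log2 ratio of Cd53 to Cd37 was 1.03 ± 0.12 (SD, n = 3), so Cd53 was higher in each library and the ranges did not overlap. A test over signs in 3 libraries cannot go below p = 0.25 (exact, two-sided), so such orders are given as descriptions.

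Cd82, a metastasis suppressor in tumours and a costimulatory protein on T cells, reached 67.4, 58.9 and 57.8 TPM. Tspan32, also called Phemx or Tssc6 and known from haematopoietic cells, reached 53.9, 50.7 and 45.1 TPM. Both were highest in replicate 1, and the lowest Cd82 value lay above the highest Tspan32 value. The vesicle markers were far lower. Cd81, a costimulatory protein on T cells, had 9.01, 8.3 and 7.64 TPM. Cd9 had 7.62, 6.39 and 6.83 TPM, and the log2 ratio of Cd81 to Cd9 was 0.26 ± 0.11 (SD, n = 3), with Cd81 higher in 3 of 3 libraries here and in 2 of 3 in the second quantification. Cd151, which holds laminin-binding integrins, had 2.48, 2.5 and 3.48 TPM.

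Cd63, a protein of late endosomes and secretory granules, was the only leukocyte member below 1 TPM in the first quantification. It was at 0.58, 0.57 and 0.58 TPM, which rested on 6.14, 9.00 and 8.26 estimated counts. Cd63 was also the only member whose estimated counts carried a deposited posterior standard deviation above 0 (1.26 counts in replicate 1), the mark of reads shared with another gene, so its level is less certain than the close values imply. The second quantification gave 1.27, 0.91 and 1.45 TPM.

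In the TspanC8 group, Tspan14 led at 39.2, 35.5 and 37.2 TPM (37.3 ± 1.83, SD). Tspan5 was next among the steady members, at 5.54, 6.15 and 5.51 TPM. The log2 ratio of Tspan14 to Tspan5 was 2.70 ± 0.15 (SD, n = 3). Tspan15 reached 0.51, 1.25 and 1.23 TPM, Tspan17 stayed at 0.29 to 0.71 TPM and Tspan33 at 0.09 to 0.45 TPM, on at most 20 counts per library for each of them. In the second quantification the means were 2.85 TPM for Tspan15 and 0.74 TPM for Tspan33, against 1.00 and 0.31 TPM in the first. Without Tspan10, the group summed to 45.9, 43.7 and 44.8 TPM, most of it Tspan14. With Tspan10 it summed to 49.4, 75.2 and 46.6 TPM, so that the high sum of replicate 2 came with that gene.

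Among the other members, Tspan13 stood alone at 43.5, 40.4 and 40.9 TPM (41.6 ± 1.67, SD). It was above Tspan14 in every library, by 0.15 ± 0.02 on the log2(TPM + 1) scale, but the order turned with TMM-scaled CPM, which is not divided by length (means of 67.8 for Tspan13 and 80.5 for Tspan14). Tspan32 lay above Tspan13 in 3 of 3 libraries in the first quantification and in 2 of 3 in the second. With protein-coding transcripts only that order also turned, to means of 25.6 TPM for Tspan32 and 41.2 TPM for Tspan13, and Tspan32 then lay below Tspan14 (31.7 TPM). Tspan3, Tspan31 and Tspan9 followed with means of 5.53, 4.25 and 3.67 TPM. Neighbours in this part of the order were not all separable: the ranges of Tspan5 and Tspan3, of Tspan31 and Tspan9, and of Tspan9 and Cd151 overlapped. Tspan6 had a mean of 1.08 TPM and Tspan4 of 0.87 TPM, each below 1 TPM in at least 1 library. Tspan2 was at 0.15 to 0.20 TPM, and Tspan8, Tspan18 and Tspan7 were each at 0.14 TPM or less. From Tspan6 down to Tspan2, each gene overlapped with its neighbour in the order. The second quantification gave higher means, of 0.60 TPM for Tspan2, 0.49 for Tspan18, 0.21 for Tspan7 and 0.10 for Tspan8. Tspan2 reached 1.11 TPM there in replicate 1.

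Tspan10 was the member that set 1 library apart. It had 3.46 TPM in replicate 1, 31.55 TPM in replicate 2 and 1.88 TPM in replicate 3, on 85, 736 and 47 estimated counts. Replicate 2 was therefore 9.12 times replicate 1 and 16.8 times replicate 3, and 11.8 times the mean of both (95% exact counting interval 9.83 to 14.4, which covers counting error only). The gene is a TspanC8 member, also known as oculospanin, from pigment cells and the eye. In replicate 2 it was close to Tspan14, while in the others it was below Cd81 and Cd9. Its coefficient of variation of 136% was the highest of the 11573 genes tested that reached 1 TPM in all libraries. The deposited posterior standard deviation of its counts was 0 in every library, so by that measure its counts held no reads shared with another gene.

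Whether a gene's counts spread more between the 3 libraries than genes of like abundance was tested with edgeR over all genes, with no contrast since there is 1 group. Of 13280 genes tested, 75 (0.565%) were called at a Benjamini-Hochberg adjusted p below 0.05, and 1 of the 16 members tested was called. That member was Tspan10 (edgeR, Benjamini-Hochberg adjusted p = 9.213e-07), which ranked 2 among the 13280 genes that passed the filter on low counts. With no such filter Tspan10 ranked 4 of 22813, and among genes with a mean count of 100 or more it ranked 4 of 9371. With replicate 2 left out it was not called (edgeR, Benjamini-Hochberg adjusted p = 0.8619), with 47 and 85 counts left to compare. Tspan9 was next among members, at 2.39, 4.68 and 3.95 TPM, lowest in replicate 1, and did not pass (edgeR, Benjamini-Hochberg adjusted p = 0.7205). The other 14 had adjusted p of 0.9417 or above. The 11 members not tested were Cd63, Tspan1, Tspan2, Tspan4, Tspan7, Tspan8, Tspan11, Tspan12, Tspan17, Tspan18 and Tspan33, whose counts were too low for the filter.

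**Figure D2:**
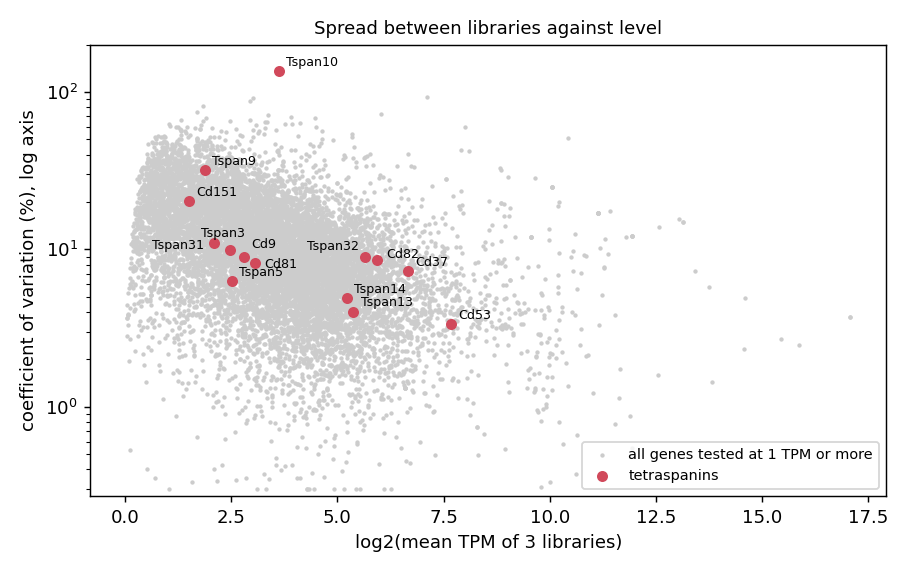
Coefficient of variation over the 3 libraries (%, log axis) against log2 of the mean TPM, for the 11573 genes tested that reached 1 TPM in all libraries (grey) and the 14 tetraspanins among them (red); values under 0.3% are drawn at 0.3. Tspan10 lies above every other gene at 136%, and the other 13 tetraspanins lie within the cloud.

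For the other tetraspanins, the spread is given beside that of all genes as a description. The 6 members at 10 TPM or more had a median coefficient of variation of 6.08% (3.35 to 8.97%), beside 6.69% over all 6039 tested genes at that level. Cd53 varied least, at 3.35%, and Tspan32 most, at 8.97%. Over the 14 members at 1 TPM or more, Tspan10 included, the median was 8.77%, beside 9.15% over all such genes. Tspan9 (31.8%) and Cd151 (20.3%) had the widest spread after Tspan10. The 13 members below 1 TPM in at least 1 library are not part of these medians.

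The excess of Tspan10 in replicate 2 was in its protein-coding transcript. Tspan10-201 had 3.07, 29.82 and 1.71 TPM in replicates 1, 2 and 3, a ratio of 12.5 for replicate 2 to the mean of the others. Tspan10-202, a processed transcript without a coding frame, had 0.39, 1.73 and 0.17 TPM, a ratio of 6.18 with a wide counting interval of 1.59 to 24.1. Tspan10-201 held 88.7%, 94.5% and 91.0% of the gene's TPM (91.4 ± 2.92%, SD), so both transcripts were highest in replicate 2 and the coding one dominated in each library. The second quantification gave 3.69, 32.6 and 2.08 TPM for the gene and a ratio of 11.3.

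The genes beside Tspan10 were measured in the same libraries. The gene lies on chromosome 11 from 120442644 to 120446950 (mm10, plus strand). Upstream, Nploc4 had 21.04, 17.18 and 21.02 TPM, lowest in replicate 2. Downstream and on the opposite strand, Pde6g lies 655 bases away and had 0.19, 0.22 and 0.03 TPM, on at most 4 counts. Oxld1, Ccdc137, Arl16, Hgs, Mrpl12 and Slc25a10, which follow within 60000 bases, each differed by 1.39-fold or less between their highest and lowest library, with Hgs summed over its 2 overlapping gene entries. Taken alone, 1 of the Hgs entries had 5.26, 2.17 and 6.03 TPM, lowest in replicate 2.

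**Figure D3:**
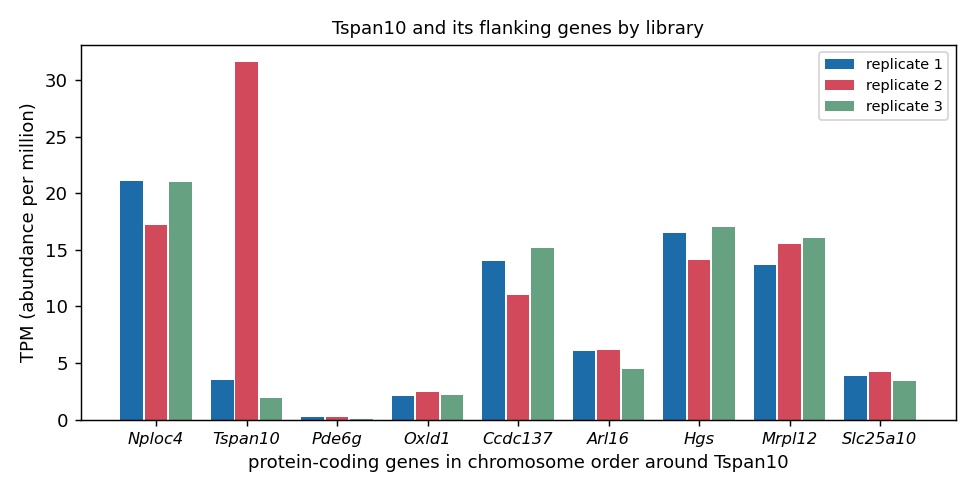
TPM (linear axis from 0) of Tspan10 and the protein-coding genes around it in chromosome order, with 1 bar per replicate and Hgs summed over its 2 gene entries. The bar of replicate 2 stands out for Tspan10 alone, at 31.55 TPM.

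By a rule chosen after these values were seen, genes were counted whose TPM in 1 library was at least 5 times that of both others on 50 or more counts. This held for 11 of 11321 genes with 50 or more counts in at least 1 library (0.0972%), and for 1 tetraspanin, Tspan10. Replicate 2 was the high library for 7 of the 11, replicate 1 for 4 and replicate 3 for 0. Of the 11, 9 had a posterior standard deviation above 0 for their counts. The others were Tspan10 and Slc15a2, a peptide transporter, with 0.11, 21.18 and 0.17 TPM, and both were high in replicate 2. Slc15a2 was left out of the edgeR test by the filter on low counts. Replicate 2 also had the highest sum of red-cell markers (97.1 against 54.2 and 42.6 TPM) and of B-cell markers (24.4 against 17.1 and 12.8 TPM). It had the lowest sums of myeloid (37.8 against 49.2 and 45.8 TPM) and platelet markers (4.21 against 7.32 and 6.99 TPM). Of the red-cell markers, edgeR called Hba-a2 (Benjamini-Hochberg adjusted p = 0.0321). Its estimated counts (88.79, 182.69 and 62.64 in replicates 1, 2 and 3) were not whole numbers, so its reads may have been divided with another gene. The part of these marker sums in the level of Tspan10 was not tested.

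Much of the RNA of some tetraspanins was assigned to transcripts outside the protein-coding class in these total RNA libraries. The like shares over all genes were not computed, so none of the shares below is called unusual. Cd53 has a single annotated transcript with a value, Cd37 and Tspan9 were at 99.7% and 100% in protein-coding transcripts, and Cd82 at 92.3% ± 5.03 (SD, n = 3). Tspan32, in contrast, had 51.3% ± 1.79 in protein-coding transcripts, 37.5% ± 2.08 in transcripts with a retained intron and 11.2% ± 0.77 in one marked for nonsense-mediated decay. The second quantification gave 47.7%, 26.6% and 25.8% for these classes. No transcript of Tspan32 led clearly: Tspan32-212, which retains an intron, held 18.3% ± 1.03 and the protein-coding Tspan32-201 held 17.3% ± 5.31, and the latter led when replicate 1 was left out. In Tspan5 the leading transcript was Tspan5-207, marked for nonsense-mediated decay, with 62.6% ± 11.2 of the gene's TPM and 46.3% in the second quantification. Tspan14 had 15.1% ± 0.16 and Cd151 had 35.2% ± 1.94 in transcripts with a retained intron. For Tspan15, near 1 TPM, 2 transcripts with a retained intron held 53.7% and 33.6%.

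**Figure D4:**
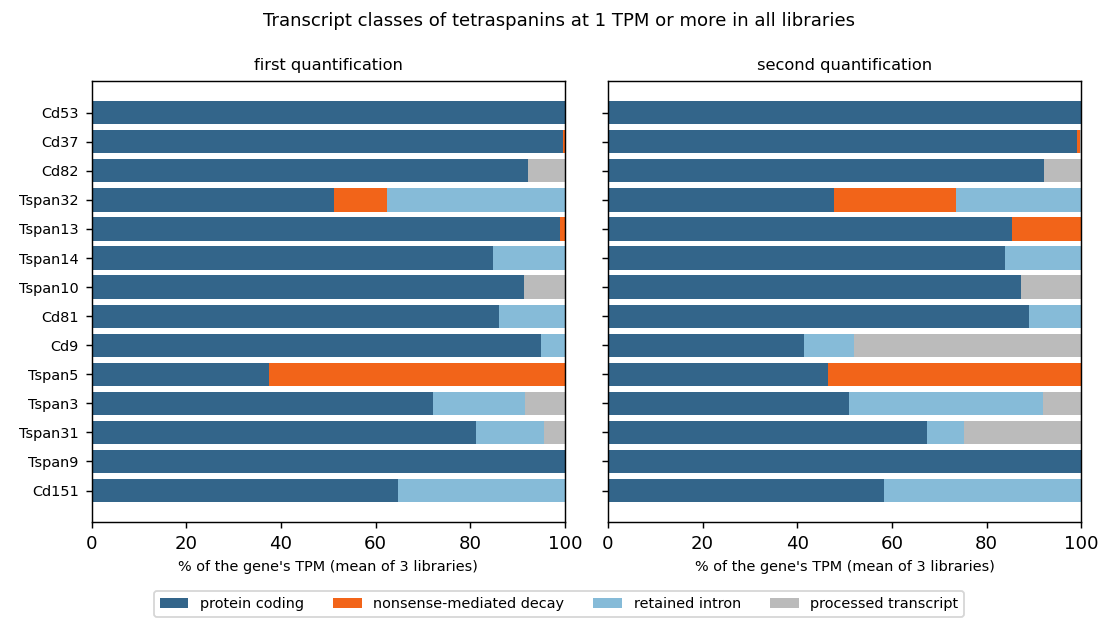
Share of each gene's TPM (%, mean of 3 libraries) by annotated transcript class, for the 14 tetraspanins at 1 TPM or more in all libraries, in the first (left) and second (right) quantification. Tspan5 and Tspan32 have large shares outside protein-coding transcripts in both panels, and the panels differ most for Cd9, at 94.9% and 41.4% protein-coding.

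Transcript assignments depended on the quantification for some members. The leading transcript was the same in both for 11 of 14 members and differed for Cd37, Cd9 and Tspan32. For Cd37, Cd37-202 held 72.6% in the first, while Cd37-201 held 57.9% in the second, and both are protein-coding. For Cd9, Cd9-201 held 94.9% in the first, while the processed transcript Cd9-202 held 48.1% in the second. The leading transcripts of Cd82 (Cd82-201, 66.1% and 70.1%) and Tspan14 (Tspan14-201, 73.8% and 79.2%) were alike. Gene levels at 10 TPM or more were higher in the second by a median of 1.29-fold for the 6 tetraspanins and 1.30-fold for all 5595 protein-coding genes at that level.

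Several tetraspanins are neighbours in the genome with unlike levels. On chromosome 7, Tspan32 and Cd81 lie 33095 bases apart with no protein-coding gene between them, at means of 49.9 and 8.32 TPM. On chromosome 2, Cd82 (61.4 TPM) lies 84606 bases from Tspan18 (0.06 TPM). On chromosome 6, Tspan9 (3.67 TPM) lies 7419 bases from Tspan11, which had 0 counts. Cd151 and Tspan4 lie 3767 bases apart on chromosome 7, with Polr2l between them, at 2.82 and 0.87 TPM. Overlaps with other genes bear on values as well. Tspan31 overlaps the more abundant Cdk4 (48.3 to 56.3 TPM) on the opposite strand over 641 bases, and Tspan4 overlaps Chid1 over 292 bases. Whether the counting used strand is not given in the sources used here, so reads there could not be separated with certainty.

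The proteins that tetraspanins organise were also well represented. Of 5 integrin subunits listed, 3 reached 10 TPM in all libraries: Itga4 (76.9 ± 4.05, SD, n = 3), Itga6 (56.2 ± 2.62) and Itgb1 (28.3 ± 4.69), whereas Itga3 and Itga7, which pair with Cd151 in other tissues, were at 1.29 and 1.26 TPM. Of 11 immunoglobulin-family and other surface partners, 6 reached 10 TPM, among them the T-cell proteins Cd2 (167 ± 7.02), Cd8a (129 ± 5.88), Cd5 (99.3 ± 9.85), Cd47 (91.6 ± 3.34) and Cd6 (85.3 ± 4.60). The direct partners of Cd9 and Cd81 were lower, with Igsf8 at 8.88 ± 1.59 and Ptgfrn at 0.82 ± 0.10 TPM. Cr2, a complement receptor of B cells, was at 1.46 TPM.

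The protease of the TspanC8 group, Adam10, was at 25.38, 21.37 and 24.95 TPM, and it was not called in the edgeR test. The related protease Adam17 was at 23.3 ± 0.58 TPM (SD, n = 3), with its carriers Rhbdf2 at 4.87 and Rhbdf1 at 0.31 TPM. Of 8 listed substrates of Adam10, 4 reached 10 TPM: Notch1 (47.1 ± 1.03), Il6ra (43.6 ± 1.68), Cd44 (24.5 ± 3.35) and Notch2 (20.8 ± 1.55). Cxcl16 and Jag1 were lowest, at 0.17 and 0.22 TPM. Of 8 vesicle genes, 6 reached 10 TPM, led by Pdcd6ip (70.4 ± 4.24), which encodes Alix, and Sdcbp (65.0 ± 1.13), which encodes syntenin. Of 5 palmitoyltransferases, which attach lipid to tetraspanins, 4 reached 10 TPM, led by Zdhhc20 (27.7 ± 0.68), and Zdhhc2, known to act on Cd9 and Cd151, was lowest at 1.49 ± 0.23. In the edgeR test, 1 gene entry among these partner lists was called, beside 0.565% of all 13280 genes tested. The entries tested were 5 for integrins, 11 for surface partners, 4 for proteases, 6 for substrates, 9 for vesicle genes and 5 for palmitoyltransferases. The entry called was one of Hgs (edgeR, Benjamini-Hochberg adjusted p = 0.0475), a vesicle gene whose reads were divided between 2 overlapping gene entries. Of 4 tetraspanins outside the naming rule, Rom1 was at 2.17 ± 0.07 TPM and Upk1a at 0.23 ± 0.04, and Upk1b and Prph2 were at 0 in all libraries.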

How the data were processed

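Per the file headers, the authors deposited, for each library, a gene table and a first transcript table with estimated counts, TPM and FPKM, and a second transcript table with estimated counts and TPM. The README files deposited by the authors state transcriptome alignments to mm10 with GENCODE M21 for the first tables, and reads with an index of that annotation for the second, called the second quantification and summed per gene here. Aligner and quantifiers were not given in the sources used here. A deposited posterior SD of the count served as a measure of reads shared between genes. Levels are deposited TPM. Genes that varied between libraries were tested in edgeR 4.0.16 (R 4.3.3) on estimated counts rounded to integers, after filterByExpr and TMM scaling, with an intercept-only robust quasi-likelihood fit in which each gene's residual dispersion was set against the abundance trend (F test, Benjamini-Hochberg over all genes, 0.05). The script was tested on simulated data. Entries with only a number for a name, spike-ins and phiX174 were left out. Coding sequences came from the GENCODE M21 transcripts, with 1 complete principal coding transcript per member and the longest complete coding sequence of each other gene. The members, groups and partner lists were chosen with earlier results of these data known. Every member is named. Values per library are given for members at 10 TPM or more, for Tspan10, for vesicle markers and for genes that a statement turns on, the transcripts named are Tspan10-202 and some of those with 10% or more of a gene's TPM, and partner lists are described by up to 5 highest and 2 lowest genes. The alternatives tried were FPKM, the second quantification, posterior means of TPM, TMM-scaled CPM, protein-coding transcripts only, a pseudocount of 0.1, filters on low values, DESeq2 1.42.0 size factors and dispersion outliers, a fit without robust moderation, and leaving out each replicate.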

Additional observations from a re-analysis of the deposited data

How the results depend on the processing

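In the second quantification the summed tetraspanin TPM was 735, the median levels were 4.84 for leukocyte members, 2.14 for TspanC8 members and 0.66 for the others, the share of Cd53 was 39.0%, and the log2 ratios were 1.15 for Cd53 to Cd37 and 2.32 for Tspan14 to Tspan5. With TMM-scaled CPM, which is not divided by length, these sums and levels were 907, 5.09, 1.95 and 0.58, and the log2 ratios were 1.33 for Cd53 to Cd37, 0.54 for Cd81 to Cd9 and 2.39 for Tspan14 to Tspan5. With protein-coding transcripts only, the sum was 504, the leukocyte and TspanC8 levels were 3.88 and 1.11, the share of Cd53 was 40.8%, and the log2 ratios were 0.12 for Cd81 to Cd9 and 3.93 for Tspan14 to Tspan5. With posterior mean TPM the level of the others was 0.68, and the log2 ratios were 0.41 for Cd81 to Cd9 and 2.42 for Tspan14 to Tspan5. A pseudocount of 0.1 gave levels of 0.93 for TspanC8 members and -1.84 for the others, and keeping only members at 0.1 TPM or more in every library gave 2.17 and 2.10. The log2 ratios of Cd53 to Cd37, Cd81 to Cd9 and Tspan14 to Tspan5 kept their sign in these settings, whereas the order of Tspan13 and Tspan14 turned with CPM and that of Tspan32 and Tspan13 with protein-coding transcripts only. Beyond the filter and pseudocount, which act by construction on the low members, the cause of these moves was not tested.

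The count of genes varying between libraries was 75, against 303 with no filter on low counts, 28 with a non-robust fit and 125 by DESeq2 dispersion outliers, and it ranged from 35 to 85 when each replicate was left out. The count of tetraspanins among them was 1, Tspan10, in all of these settings with all libraries. It ranged from 0 to 1 when each replicate was left out. Without replicate 2, 0 of the 16 members tested and 85 of 13636 genes were called. At an unadjusted edgeR p below 0.05, 3 of the 16 members and 809 of the 13636 genes passed in that setting. The adjusted p of Tspan10 in the settings with all libraries ranged from 2.837e-115 to 0.0001492 (edgeR). The ratio of Tspan10-201 was 12.5, and 9.71 to 17.4 when replicate 3 or 1 was left out. Without replicate 2 that ratio does not exist and was not computed. Counts of 3 to 22 per library limit what can be said of Tspan15, Tspan17, Tspan33, Tspan4 and Cd63. No paired analysis was possible because the 3 libraries form 1 group.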
